A study of Rattus norvegicus with 5 samples.

Results

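The 8 genes described here, *Lrrk2*, *Pink1*, *Park7*, *Vps35*, *Atp13a2*, *Uchl1*, *Dnajc6* and *Synj1*, are genes whose human counterparts have been linked to inherited forms of Parkinson disease. They were chosen by gene name, each name matched 1 gene in the files, and they make up 8 of the 32883 genes listed. Single nucleus RNA sequencing (snRNA-seq) libraries of the ventral tegmental area (VTA), a midbrain region rich in dopamine neurons, had been made from 5 adult male Sprague-Dawley rats, with tissue punches of both hemispheres combined into 1 library per rat. All 5 libraries formed 1 group, whose treatment is given as saline in the sample labels and which the paper calls drug-naïve, so no treatments could be compared. Differences were therefore read between classes of nuclei of the same rats. The p-values come from fits with the rat as a block, in which all classes shared an estimate of the spread. They weigh a difference against the spread left after differences between rats are removed. A small p-value does not show that each of the 5 rats went the same way. RNA molecules were counted by their unique molecular identifiers (UMIs), short tags that let copies of 1 molecule be counted once.

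Degeneration of midbrain dopamine neurons is the hallmark of Parkinson disease, with the neurons of the substantia nigra generally hit harder than those of the neighbouring VTA. The proteins of these 8 genes fall into a few cellular roles. *Lrrk2* encodes a kinase of Rab GTPases, which steer membrane traffic. *Pink1* encodes a kinase that marks damaged mitochondria for removal, and *Park7* encodes DJ-1, a protein that responds to oxidative stress. *Vps35* encodes a core subunit of retromer, which sorts cargo out of endosomes, and *Atp13a2* encodes a lysosomal P5 ATPase that exports polyamines. *Uchl1* encodes a ubiquitin hydrolase long used as a marker of neurons. *Dnajc6* encodes auxilin, which helps strip clathrin from endocytic vesicles, and *Synj1* encodes synaptojanin, a lipid phosphatase of the same uncoating step.

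Barcodes with at least 1000 UMIs, 201 to 4999 genes and under 5% of UMIs from mitochondrial genes were kept. This left 22084 barcodes, between 1813 and 9336 per rat, and 21016 after removal of 1068 marked as doublets. Library totals ran from 10193355 to 88576210 UMIs, with rat 3 the shallowest. Clusters made without the 8 genes and without the pathway genes below were named from marker genes. They gave 1050 dopaminergic-like neurons (14, 380, 302, 159 and 195 in rats 1 to 5), 3756 other neurons, 621 microglia-like nuclei and 10483 nuclei of other glia, the last made up of 8594 oligodendrocyte-like nuclei, 796 nuclei like oligodendrocyte precursor cells (OPCs) and 1093 astrocyte-like nuclei. A further 407 vascular-like and 4699 unnamed nuclei entered none of these 4 classes. Among the unnamed were 6 sub-clusters of neurons, set aside because markers of a glial class were raised in them. Before removal of doublets they held 1304 of the 6197 neurons clustered. An unnamed cluster of 1627 nuclei, more than all dopaminergic-like neurons, had *Slc6a3* and *Th* among its leading genes. It was left out because its oligodendrocyte markers were nearly as high as its neuron markers, and most of it came from rat 2 (88, 1337, 2, 61 and 155 nuclei in rats 1 to 5 before removal of doublets). Its nuclei were shallow, with a median of 1243 UMIs. Levels are given as UMIs of the gene per 10000 UMIs of all nuclei of a class in a rat, so a lower level in a class is a lower share of its RNA.

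The defining markers were present in the named classes, with limits. *Th*, the enzyme that starts dopamine synthesis, averaged 9.18 per 10000 in dopaminergic-like neurons (5.28 to 21.1 over rats) against 0.757 in other neurons, and the dopamine transporter gene *Slc6a3* averaged 10.8 against 0.486. The microglial receptor gene *Csf1r* averaged 7.39 in microglia-like nuclei (0.959 to 10.3) against 0.0793 in other glia. The microglia-like nuclei also held the 5 lymphocyte markers *Skap1*, *Ighm*, *Bank1*, *Cd3e* and *Cd79b*, at means of 1.15, 0.926, 0.185, 0.0172 and 0.0138 per 10000, and the part of these in the microglial values was not tested. Oligodendrocyte RNA was present outside its class: the myelin gene *Mbp* averaged 65.4 in other glia, 34.6 in microglia-like nuclei, 10.5 in dopaminergic-like neurons (2.12 to 25.6) and 6.87 in other neurons. Its part in the results was not tested beyond fits without the dopaminergic sub-cluster richest in it and with free RNA subtracted. Rat 1 gave 14 dopaminergic-like nuclei, with 2.13% of their UMIs mitochondrial against 0.146% to 0.747% in the other rats, and rat 3 had the lowest median UMIs per nucleus in every one of the 4 classes.

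All 8 passed the filter on low counts among 12024 genes tested over the 4 classes. By the quasi-likelihood test of edgeR on summed counts with the rat as a block (Benjamini-Hochberg adjusted p under 0.05 over all genes), 1 of 8 differed between dopaminergic-like and other neurons, where 13% of all genes tested were called. Between dopaminergic-like neurons and other glia, 6 of 8 were called against 60.2% of all genes, with 5 higher in dopaminergic-like neurons (29.2% of all genes) and 1 lower (31%). Between dopaminergic-like neurons and microglia-like nuclei, 5 of 8 were called against 50.9%, with 4 higher (26.6%) and 1 lower (24.3%). Other neurons differed from other glia in 6 of 8 genes (66.3% of all genes), 4 higher (32%) and 2 lower (34.3%), and from microglia-like nuclei in 5 of 8 (55.7%), 3 higher (29.8%) and 2 lower (25.9%). Microglia-like nuclei differed from other glia in 3 of 8 (35.3%), 2 higher (13.8%) and 1 lower (21.6%). In either direction these shares of members lie near the shares of all genes. By direction, 62.5% of the members were higher in dopaminergic-like neurons than in other glia and 50% were higher than in microglia-like nuclei, but with 8 chosen genes this is a description, and each gene is described on its own.

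**Figure D1:**
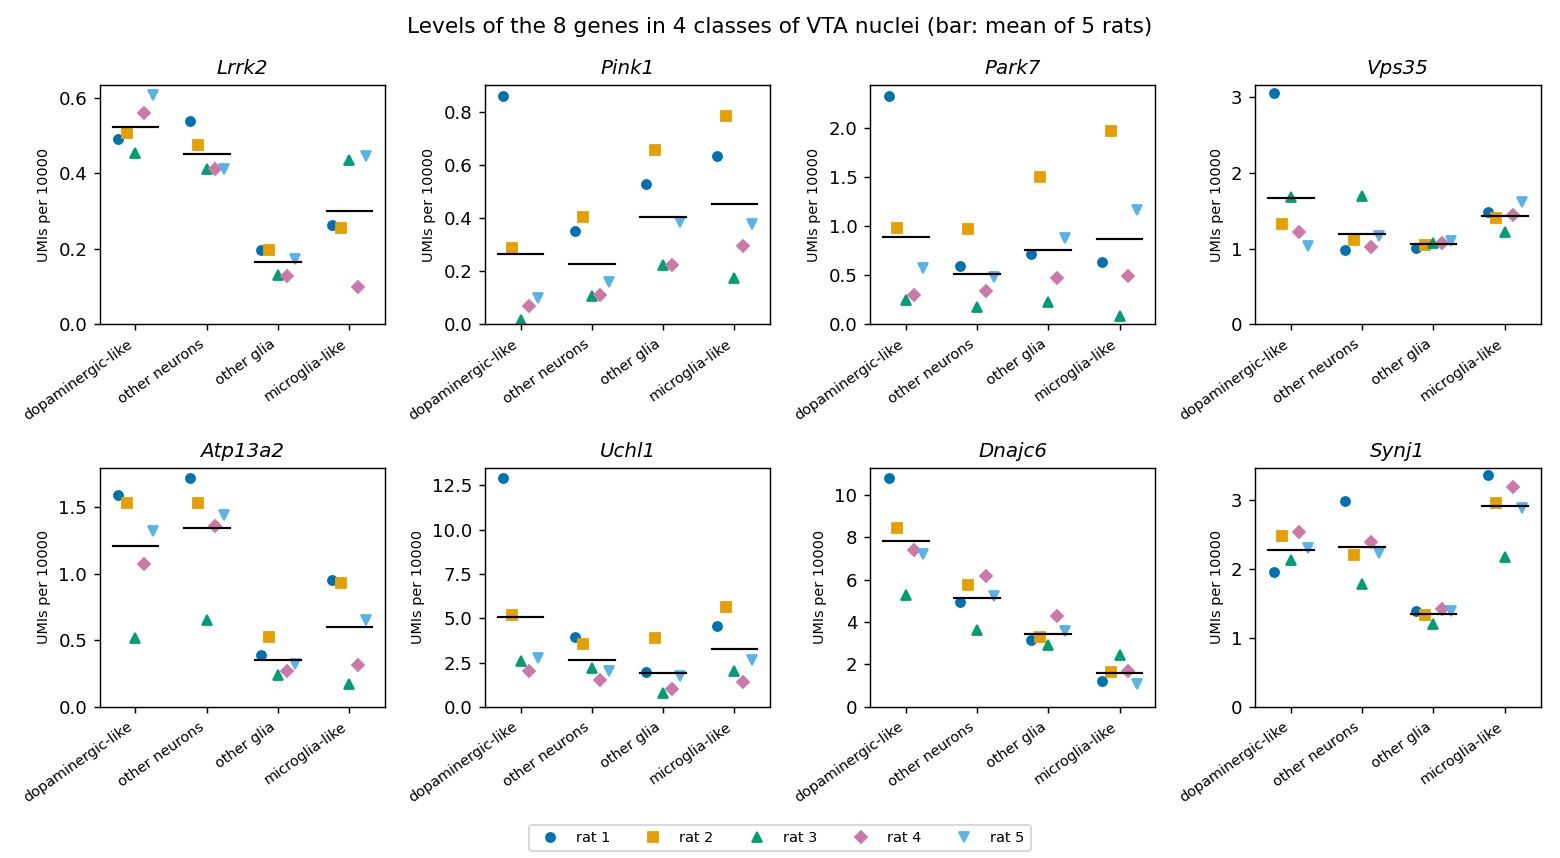
Level of each of the 8 genes (y axis, UMIs per 10000 UMIs of the class) in dopaminergic-like neurons, other neurons, other glia and microglia-like nuclei, with 1 symbol per rat and a bar at the mean of 5 rats. Dnajc6 falls in steps from dopaminergic-like neurons (mean 7.83) to microglia-like nuclei (1.62), Lrrk2 and Atp13a2 are higher in both neuron classes than in other glia, and rat 1 lies apart in dopaminergic-like neurons for Pink1, Park7, Vps35 and Uchl1.

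The scale bears on the sign of small differences. With total UMIs in place of the TMM factors of edgeR, the median log2 difference of all genes moved from -0.13 to 0.19 between microglia-like nuclei and other glia, and the share of called genes that were higher in microglia-like nuclei moved from 38.9% to 63.1%. That share, of called genes higher in the first class, moved from 48.3% to 59.1% for other neurons against other glia, from 51.3% to 64.5% for astrocyte-like against oligodendrocyte-like nuclei (61.5% with DESeq2 size factors) and from 50.5% to 64% for OPC-like against oligodendrocyte-like nuclei. For dopaminergic-like neurons it moved from 48.6% to 58% against other glia, from 52.3% to 43.9% against microglia-like nuclei and from 49.2% to 46.5% against other neurons. For other neurons against microglia-like nuclei it moved from 53.5% to 46.3%. None of the 35 calls of the 8 genes changed sign under any setting tried.

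*Dnajc6* was the 1 gene of the 8 called between dopaminergic-like and other neurons. Its level in dopaminergic-like neurons was 10.8, 8.43, 5.27, 7.42 and 7.23 per 10000 in rats 1 to 5 (mean 7.83 ± 2.01, SD, n = 5). In other neurons it was 4.95, 5.75, 3.64, 6.17 and 5.22 (mean 5.14 ± 0.964, SD, n = 5). Dopaminergic-like neurons were higher in 5 of 5 rats, although the ranges overlapped because rat 3 was lowest in both classes. On the log2 scale the difference was 0.58 (SE 0.18, 95% interval 0.23 to 0.93), a 1.49-fold difference, with an adjusted p of 0.0283 in edgeR. This call held in 11 of 19 other settings, in which the log2 value ran from 0.27 to 0.69. The call was lost, among others, with free RNA subtracted. The adjusted p was 0.0824, 0.144 and 0.131 without rats 1, 2 and 5, 0.218 without the replicate block, and 0.0644 without the dopaminergic sub-cluster that held most oligodendrocyte RNA, where the log2 fold change was 0.44. It was lowest, at 0.27 (adjusted p = 0.376), with nuclei typed by their own markers.

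Against glia, the *Dnajc6* difference was larger than the spread between rats. In other glia the level was 3.14, 3.29, 2.91, 4.28 and 3.6, and in microglia-like nuclei 1.21, 1.63, 2.44, 1.71 and 1.1. The ranges of dopaminergic-like neurons and other glia did not overlap, nor did those of either with microglia-like nuclei. The log2 fold change of dopaminergic-like neurons was 0.98 (SE 0.18, adjusted p = 4.2e-05 in edgeR) over other glia and 2.44 (SE 0.21, adjusted p = 4.0e-10 in edgeR) over microglia-like nuclei, and that of microglia-like nuclei over other glia was -1.46 (SE 0.20, adjusted p = 1.7e-06 in edgeR). Other neurons exceeded other glia by only 0.40 (SE 0.17, adjusted p = 0.0466 in edgeR), a call that held in 8 of 19 other settings. It was lost, among others, without rat 2 (0.37, adjusted p = 0.148) or rat 4 (0.28, adjusted p = 0.263), and the difference was 0.08 (adjusted p = 0.697) with oligodendrocyte-like nuclei alone as other glia.

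Within other glia, *Dnajc6* RNA belonged mainly to oligodendrocytes. Its level in oligodendrocyte-like nuclei was 3.94, 4.02, 3.53, 4.74 and 4.37 in rats 1 to 5, against 0.374, 0.81, 1.96, 0.391 and 0.739 in astrocyte-like nuclei and 1.5, 1.42, 2.06, 1.12 and 1.33 in OPC-like nuclei. Every oligodendrocyte-like value lay above every value of the other classes of glia shown here. Astrocyte-like nuclei were lower by a log2 fold change of -2.73 (SE 0.26, adjusted p = 1.4e-12 in edgeR) and OPC-like nuclei by -1.79 (SE 0.24, adjusted p = 2.8e-08 in edgeR). Over single clusters the level ran from 3.56 to 5.71 in 6 oligodendrocyte clusters, from 3.91 to 7.08 in 18 sub-clusters of other neurons and from 7.18 to 7.93 in the 3 dopaminergic sub-clusters. In these values pooled over rats, all 3 dopaminergic sub-clusters lay above these other clusters, while the ranges of other neurons and oligodendrocytes overlapped. The closest step was small, 7.18 against 7.08. The sub-cluster at 7.08 came from rats 2 and 3 alone (59 and 60 nuclei before removal of doublets), and the order was not tested per rat. The unnamed cluster led by *Slc6a3*, outside the class, held *Dnajc6* at 2.5, below all of these clusters. The high dopaminergic values of *Dnajc6* therefore hold for the nuclei classed as such.

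The bases before the *Dnajc6* start site are shown because it was the 1 gene called between the neuron classes. The sequence is from RefSeq (GRCr8, chr5:121289949-121290198, plus strand), read 5′ to 3′ in the sense of the gene up to the base before the start. Capitals mark matches to GGGCGG, a motif bound by Sp1-type factors, on either strand (CCGCCC on the other), and the 2 matches overlap.
Dnajc6: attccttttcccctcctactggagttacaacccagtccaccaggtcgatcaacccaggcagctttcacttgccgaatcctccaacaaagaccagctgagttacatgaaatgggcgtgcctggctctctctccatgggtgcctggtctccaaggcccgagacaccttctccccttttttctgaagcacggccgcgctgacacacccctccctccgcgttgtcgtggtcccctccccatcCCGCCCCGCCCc
Of all 33469 promoters of this length in the table, 30.5% held GGGCGG on either strand. The window held no match to the other motifs searched, TATAAA (the TATA box), the CCAAT box and the E-box CACGTG.

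*Synj1*, whose product acts at the same step, did not follow *Dnajc6*. Its level was 1.96, 2.49, 2.13, 2.54 and 2.31 in dopaminergic-like neurons of rats 1 to 5 and 2.99, 2.21, 1.78, 2.39 and 2.23 in other neurons. These ranges overlapped fully, with a log2 fold change of 0.06 (95% interval -0.22 to 0.34, adjusted p = 0.902 in edgeR). In other glia the level was 1.39, 1.33, 1.21, 1.42 and 1.4, below every neuronal value. Dopaminergic-like neurons exceeded other glia by a log2 fold change of 0.66 (SE 0.14, adjusted p = 3.5e-04 in edgeR) and other neurons did so by 0.60 (adjusted p = 4.7e-04 in edgeR).

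By mean, *Synj1* was highest in microglia-like nuclei, although neither neuron class was called different from them. The level there was 3.37, 2.96, 2.18, 3.2 and 2.89 (mean 2.92 ± 0.458, SD, n = 5), above other glia in every rat without overlap. The log2 fold change over other glia was 0.82 (SE 0.15, adjusted p = 8.7e-05 in edgeR), while *Dnajc6* went the opposite way between the same classes. Microglia-like nuclei were also above dopaminergic-like neurons in 5 of 5 rats, with overlapping ranges, by means of 2.92 against 2.29. The log2 fold change of dopaminergic-like neurons was -0.16 (95% interval -0.46 to 0.15, adjusted p = 0.415) in edgeR. It passed the threshold in 2 of 19 other settings, the DESeq2 test (-0.27, adjusted p = 0.022) and total UMIs as scale (-0.31, adjusted p = 0.0461). Other neurons were below microglia-like nuclei in 5 of 5 rats as well, with overlapping ranges. The log2 fold change of other neurons against microglia-like nuclei was -0.22 (95% interval -0.51 to 0.08, adjusted p = 0.224 in edgeR). That value passed the threshold in 3 of 19 other settings.

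The other genes of clathrin endocytosis went in both directions. The list held 25 genes, of which *Syt1* was left out of counts because it had named the neurons. Of the remaining 24, 7 were higher and 8 lower in dopaminergic-like neurons than in other glia (29.2% and 31% of all genes, median log2 fold change -0.11, against -0.07 over all genes tested), and 9 were higher and 7 lower than in microglia-like nuclei (26.6% and 24.3% of all genes, median 0.03, against 0.02). *Pacsin1*, a syndapin of neurons, was higher in dopaminergic-like neurons than in other glia by a log2 fold change of 2.49 (SE 0.19, adjusted p = 2.1e-11 in edgeR). *Synj2*, the second synaptojanin, went the other way by -4.87 (SE 0.29, adjusted p = 3.4e-13 in edgeR), with means of 0.0546 per 10000 in dopaminergic-like neurons and 2.04 in oligodendrocyte-like nuclei. *Bin1*, an amphiphysin that bends membranes, was lower by -2.16 (SE 0.19, adjusted p = 4.3e-10 in edgeR). *Snap91*, a clathrin adaptor of synapses, exceeded microglia-like nuclei by 2.10 (SE 0.19, adjusted p = 1.2e-09 in edgeR). Between dopaminergic-like and other neurons, only *Sh3gl2* of the 24, the gene of endophilin A1, passed the test (13% of all genes did), and it was lower in dopaminergic-like neurons by -0.78 (SE 0.25, adjusted p = 0.0389 in edgeR).

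**Figure D2:**
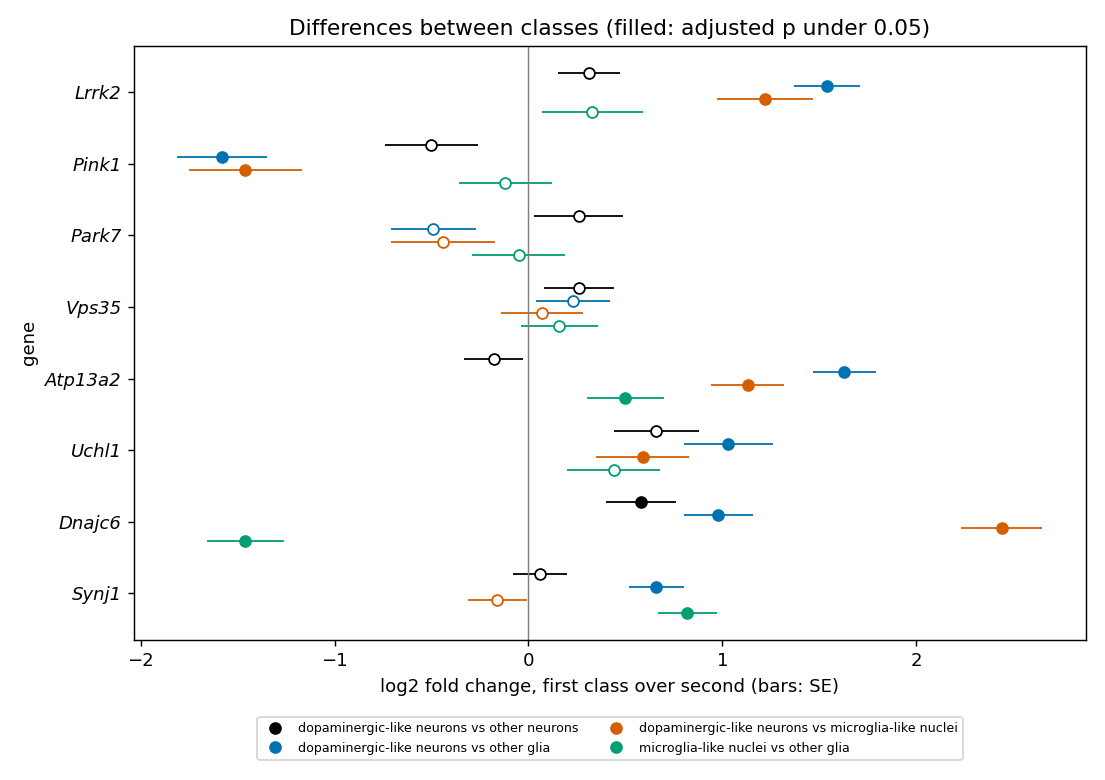
Log2 fold change of each of the 8 genes (x axis, first class over second, bars ± SE) in 4 comparisons, filled where the Benjamini-Hochberg adjusted p of edgeR was under 0.05. Only Dnajc6 (0.58) is filled for dopaminergic-like against other neurons, and Dnajc6 (-1.46) and Synj1 (0.82) lie on opposite sides for microglia-like nuclei against other glia.

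*Lrrk2* was low in the RNA of every class and lowest by far in oligodendrocytes. Its level in dopaminergic-like neurons was 0.49, 0.506, 0.455, 0.56 and 0.609 per 10000 in rats 1 to 5 (mean 0.524 ± 0.0605, SD, n = 5). In other neurons it was 0.54, 0.475, 0.413, 0.412 and 0.413 (mean 0.45 ± 0.0567, SD, n = 5). Dopaminergic-like neurons were higher in 4 of 5 rats with overlapping ranges, and the log2 fold change of 0.31 (95% interval 0.00 to 0.62) had an adjusted p of 0.251 in edgeR. In other glia the level was 0.198, 0.196, 0.13, 0.127 and 0.173, below every neuronal value. Dopaminergic-like neurons exceeded other glia by a log2 fold change of 1.54 (SE 0.17, adjusted p = 1.4e-08 in edgeR), and other neurons did so by 1.23 (SE 0.15, adjusted p = 7.5e-08 in edgeR). Both calls held in all 19 other settings, but the size depended on the setting, from 1.28 to 3.87 and from 0.99 to 3.54. They hold for the pooled class, in which 8594 of 10483 nuclei were oligodendrocyte-like. By mean, OPC-like (0.656) and astrocyte-like nuclei (0.639) lay above both neuron classes, with overlapping ranges, and these differences were not tested.

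Microglia-like nuclei carried *Lrrk2* at 0.264, 0.256, 0.436, 0.0982 and 0.447, from 44 UMIs in all. Dopaminergic-like neurons were higher in each rat without overlap, by a log2 fold change of 1.22 (SE 0.25, adjusted p = 1.9e-04 in edgeR). Other neurons were higher in 3 of 5 rats, by 0.90 (SE 0.24, adjusted p = 0.00231 in edgeR), and without rat 4, the lowest of the microglial values, the difference was 0.51 (adjusted p = 0.104). The difference between microglia-like nuclei and other glia was 0.33 (95% interval -0.18 to 0.83, adjusted p = 0.368 in edgeR). It was 2.63 (adjusted p = 1.8e-06) with oligodendrocyte-like nuclei alone as other glia, and -0.89 (adjusted p = 0.0995) with nuclei of both classes typed one by one by their own markers.

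The finer classes of glia differed widely in *Lrrk2*. Oligodendrocyte-like nuclei held 16, 41, 1, 21 and 8 *Lrrk2* UMIs in rats 1 to 5, which made levels of 0.0587, 0.0419, 0.0309, 0.0207 and 0.0155. OPC-like nuclei were at 0.768, 0.57, 0.275, 0.86 and 0.805, and astrocyte-like nuclei at 0.526, 0.724, 0.28, 1.04 and 0.621. Every OPC-like and astrocyte-like value exceeded every oligodendrocyte-like value, and rat 3 was the lowest in both higher classes. The log2 excess over oligodendrocyte-like nuclei was 4.25 (SE 0.26, adjusted p = 1.7e-18 in edgeR) for astrocyte-like and 4.29 (SE 0.27, adjusted p = 5.5e-18 in edgeR) for OPC-like nuclei, both 19-fold or more. With dopaminergic-like neurons and vascular-like nuclei (mean 0.621 ± 0.245, SD, n = 5) included, the order of means ran OPC-like 0.656, astrocyte-like 0.639, vascular-like 0.621, dopaminergic-like 0.524, GABA-like 0.451, glutamate-like 0.392, microglia-like 0.3 and oligodendrocyte-like 0.0335. Neighbours in this order overlapped over rats, apart from the last step.

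The share of nuclei with a *Lrrk2* UMI gave the same contrast at equal depth. As counted, 22.9% of dopaminergic-like neurons, 17.9% of OPC-like, 19.8% of astrocyte-like and 1.12% of oligodendrocyte-like nuclei had at least 1 *Lrrk2* UMI (means of 5 rats), but median UMIs per nucleus differed, from 1763 to 9379 in dopaminergic-like neurons and from 1238 to 6092 in oligodendrocyte-like nuclei. The shares expected at 1000 UMIs per nucleus were 5.44%, 5.94%, 5.94% and 0.294%. After subtraction of free RNA the mean *Lrrk2* level of oligodendrocyte-like nuclei was 0.0153 per 10000, and whether the rest is background was not tested. Over 6 oligodendrocyte clusters the level ran from 0 to 0.0599, and over 18 sub-clusters of other neurons from 0.152 to 0.968. These values were pooled over rats and not tested per rat. All nuclei of the oligodendrocyte cluster at 0 came from rat 3, and 369 of 378 of that at 0.0599 from rat 1, before removal of doublets. A neuron sub-cluster of 284 nuclei in which GABA markers prevailed, left unnamed and outside the classes, held *Lrrk2* at 0.998. *Lrrk2* was not listed among the promoter sequences used here.

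**Figure D3:**
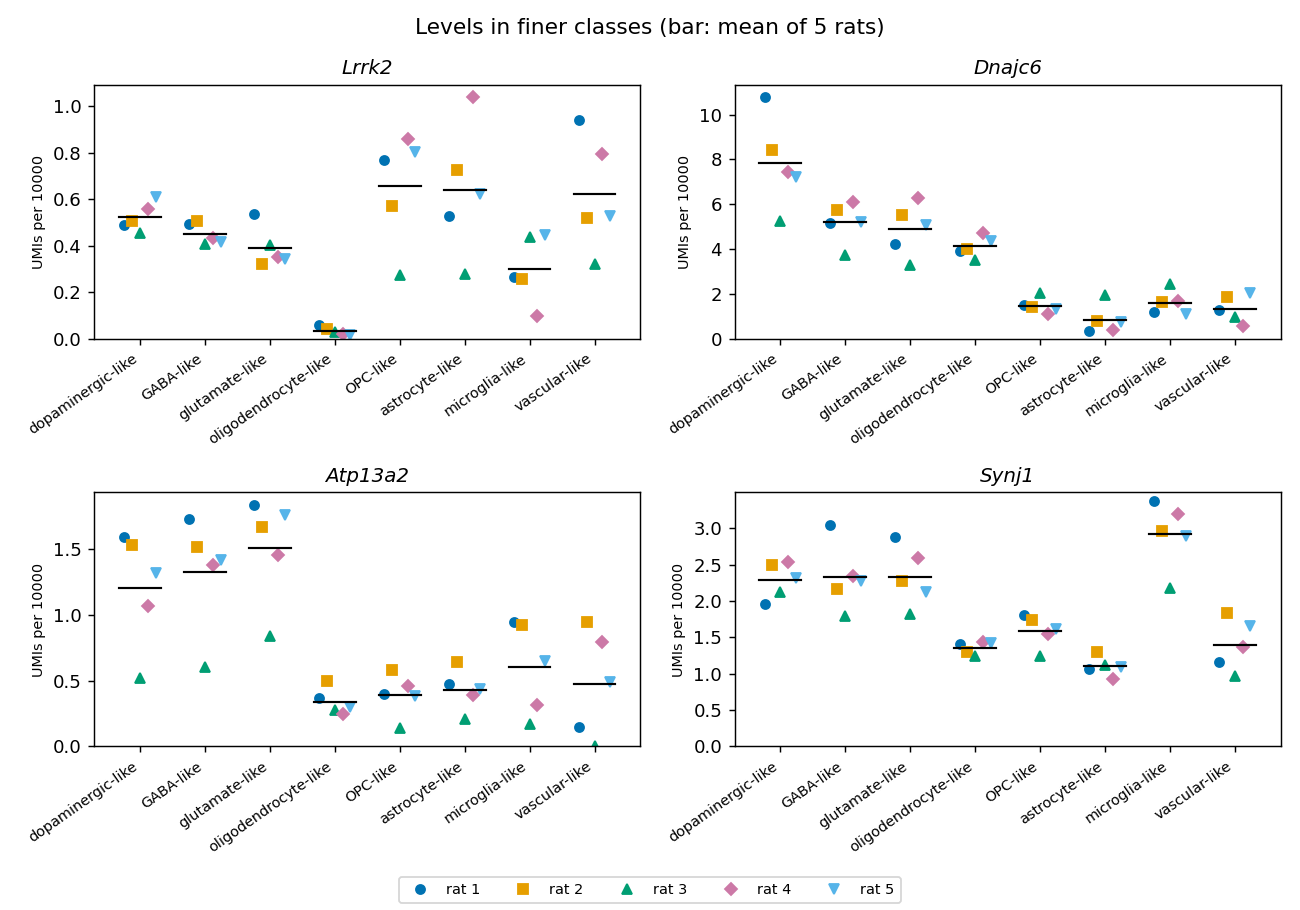
Levels of Lrrk2, Dnajc6, Atp13a2 and Synj1 (y axis, UMIs per 10000 UMIs of the class) in 8 finer classes of nuclei, with 1 symbol per rat and a bar at the mean of 5 rats. Lrrk2 is near 0 in oligodendrocyte-like nuclei (mean 0.0335) and high in OPC-like (0.656) and astrocyte-like nuclei (0.639), while Dnajc6 is highest among glia in oligodendrocyte-like nuclei (4.12).

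Of 14 genes listed as LRRK2 substrates and partners, 12 were tested. Between dopaminergic-like neurons and microglia-like nuclei, 1 was higher and 7 were lower in the neurons (26.6% and 24.3% of all genes), with a median log2 fold change of -0.78 against 0.02 over all genes. The paralog *Lrrk1* averaged 2.24 per 10000 in microglia-like nuclei and 0.0236 in dopaminergic-like neurons, a log2 fold change of -6.11 for the neurons (SE 0.33, adjusted p = 2.0e-13 in edgeR). *Rab29*, a Rab that recruits LRRK2 to membranes, differed by -2.82 (SE 0.45, adjusted p = 8.7e-06 in edgeR), and *Rilpl1*, which binds phosphorylated Rabs, by -1.48 (SE 0.21, adjusted p = 2.2e-06 in edgeR). *Ppm1h*, a phosphatase that reverses LRRK2 action on Rabs, was higher in microglia-like nuclei than in other glia by 1.37 (SE 0.14, adjusted p = 2.3e-08 in edgeR). *Rab10*, a substrate, was lower in dopaminergic-like neurons than in other glia by -1.09 (SE 0.17, adjusted p = 5.8e-06 in edgeR). *Lrrk1* was also higher in astrocyte-like than in oligodendrocyte-like nuclei, by 3.88 (SE 0.37, adjusted p = 2.2e-12 in edgeR).

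*Atp13a2* marked both kinds of neuron. Its level was 1.59, 1.53, 0.518, 1.07 and 1.32 per 10000 in dopaminergic-like neurons of rats 1 to 5 and 1.72, 1.53, 0.655, 1.36 and 1.44 in other neurons. Each rat had close values in the 2 classes, with dopaminergic-like neurons higher in 0 of 5 rats, and rat 3 was low in both. The log2 fold change was -0.18 (95% interval -0.46 to 0.11, adjusted p = 0.567 in edgeR). In other glia the level was 0.387, 0.528, 0.241, 0.27 and 0.324, and in microglia-like nuclei 0.949, 0.927, 0.174, 0.314 and 0.653. Dopaminergic-like neurons exceeded other glia in 5 of 5 rats by a log2 fold change of 1.63 (SE 0.16, adjusted p = 1.4e-09 in edgeR) and other neurons did so by 1.81 (SE 0.14, adjusted p = 4.1e-11 in edgeR), the latter without overlap. Both calls held in all 19 other settings, with values from 1.42 to 2.71 and from 1.54 to 2.97. Dopaminergic-like neurons exceeded microglia-like nuclei by 1.13 (SE 0.19, adjusted p = 2.5e-05 in edgeR), or by 0.58 (adjusted p = 0.0831) when every nucleus was thinned to 1000 UMIs. Microglia-like nuclei exceeded other glia in 4 of 5 rats by 0.50 (SE 0.20, adjusted p = 0.0487 in edgeR), a call that held in 9 of 19 other settings and was lost, among others, without rats 1, 2 and 5 (adjusted p = 0.22, 0.22 and 0.0813).

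Other lysosomal genes went in both directions, and more of them were lower than higher in dopaminergic-like neurons. Of 21 listed genes of the lysosome and the P5 ATPase family, 20 were tested over the 4 classes. In dopaminergic-like neurons 3 were higher and 9 lower than in other glia (29.2% and 31% of all genes, median log2 fold change -0.53, against -0.07 over all genes), and 4 were higher and 10 lower than in microglia-like nuclei (26.6% and 24.3% of all genes, median -0.66, against 0.02). *Atp13a4*, a P5 ATPase of the same subfamily, was high in astrocytes, with a mean of 3.26 per 10000 in astrocyte-like and 0.0192 in oligodendrocyte-like nuclei, a log2 fold change of 7.50 (SE 0.28, adjusted p = 4.9e-25 in edgeR). *Tfeb*, a transcription factor of lysosomal genes, was lower in dopaminergic-like neurons than in other glia by -2.96 (SE 0.25, adjusted p = 1.7e-10 in edgeR). The cathepsin gene *Ctsl* and the progranulin gene *Grn* were lower than in microglia-like nuclei by -2.79 (SE 0.27, adjusted p = 3.9e-09 in edgeR) and -2.31 (SE 0.30, adjusted p = 6.5e-07 in edgeR). Between dopaminergic-like and other neurons, where 6.42% of all genes were higher and 6.62% lower, 3 of the 20 were called: *Tpcn2*, a lysosomal ion channel gene, was higher by 2.17 (SE 0.30, adjusted p = 8.3e-06 in edgeR, means 0.0975 and 0.0332 per 10000), the membrane protein gene *Lamp2* by 0.64 (SE 0.16, adjusted p = 0.00782 in edgeR), and *Tfeb* was lower by -0.94 (SE 0.29, adjusted p = 0.0285 in edgeR).

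The *Atp13a2* promoter is printed beside that of *Pink1*, since the 2 genes lie on the same chromosome and differed between neurons and glia in opposite directions. This does not set the pair apart, since *Dnajc6* and *Park7* lie on that chromosome too and differed in opposite directions between other neurons and other glia. Both printed sequences are from RefSeq (GRCr8), read 5′ to 3′ in the sense of the gene up to the base before the start, at chr5:158575561-158575810 (plus strand) for *Atp13a2* and chr5:155825951-155826200 (minus strand) for *Pink1*. Capitals mark GGGCGG on either strand in both, and CACGTG, the core of the CLEAR element found at lysosomal genes, in *Pink1*.
Atp13a2: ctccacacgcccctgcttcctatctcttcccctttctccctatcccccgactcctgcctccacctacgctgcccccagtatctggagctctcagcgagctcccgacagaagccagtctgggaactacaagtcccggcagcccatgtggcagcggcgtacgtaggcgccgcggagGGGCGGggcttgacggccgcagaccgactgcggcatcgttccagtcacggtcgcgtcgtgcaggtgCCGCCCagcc
Pink1: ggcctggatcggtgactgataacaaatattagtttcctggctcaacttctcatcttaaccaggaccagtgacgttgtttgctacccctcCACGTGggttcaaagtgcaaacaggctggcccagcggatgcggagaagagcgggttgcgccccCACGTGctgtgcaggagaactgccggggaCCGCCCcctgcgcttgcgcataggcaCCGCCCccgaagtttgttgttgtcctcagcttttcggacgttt
*Pink1* held CACGTG at 2 places, a motif present in 5.59% of all 33469 promoters of this length, and the other 6 members with a listed promoter, *Atp13a2* included, held none.

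*Pink1* was the 1 gene of the 8 called lower in dopaminergic-like neurons than in glia. Its level in dopaminergic-like neurons was 0.858, 0.288, 0.0157, 0.0674 and 0.0971 per 10000 in rats 1 to 5, from 7, 82, 1, 10 and 15 UMIs. In other neurons it was 0.351, 0.402, 0.107, 0.112 and 0.159, in other glia 0.527, 0.657, 0.223, 0.223 and 0.383, and in microglia-like nuclei 0.633, 0.783, 0.174, 0.295 and 0.378. Rat 1 was the highest dopaminergic value and the sole rat in which dopaminergic-like neurons exceeded the other classes, so the mean of 0.265 ± 0.347 (SD, n = 5) does not show the direction of the other 4 rats. Dopaminergic-like neurons differed by a log2 fold change of -1.58 (SE 0.23, adjusted p = 1.4e-06 in edgeR) against other glia and -1.46 (SE 0.29, adjusted p = 1.6e-04 in edgeR) against microglia-like nuclei. Without the replicate block these 2 calls were lost (adjusted p = 0.0536 and 0.0966), as they were with nuclei typed by their own markers (-0.54, adjusted p = 0.0596, and -0.15, adjusted p = 0.754). Other neurons were below other glia in 5 of 5 rats, by -1.08 (SE 0.17, adjusted p = 6.3e-06 in edgeR), and below microglia-like nuclei by -0.96 (SE 0.25, adjusted p = 0.00222 in edgeR). Of 19 other settings, these calls of *Pink1* held in 18 and 17, and the losses were without the replicate block (adjusted p = 0.12 and 0.199) and, against microglia-like nuclei, with nuclei typed by their own markers (-0.51, adjusted p = 0.21).

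Pooled over rats, the *Pink1* level also differed among the dopaminergic sub-clusters. Of the 3 dopaminergic sub-clusters, 1 of 166 nuclei held oligodendrocyte marker RNA at 26.6% of the oligodendrocyte level, against 5.24% and 5.74% in the others. Before removal of doublets it had 7, 104, 0, 24 and 44 nuclei in rats 1 to 5, with a median of 3138 UMIs, against 6396 and 6461 in the others. In the sub-cluster of 166 nuclei *Pink1* was at 0.694 per 10000, *Park7* at 2.1 and *Uchl1* at 11.8, against 0.113 and 0.138, 0.534 and 0.535, and 3 and 2.85 in the others. The parts of rat, depth and free RNA in these levels were not tested. Without this sub-cluster, a setting chosen after seeing the data, *Pink1* was lower in dopaminergic-like than in other neurons by -1.05 (adjusted p = 6.0e-04), against -0.50 (95% interval -0.97 to -0.04, adjusted p = 0.206 in edgeR) with it. The unnamed cluster led by *Slc6a3*, outside the class, held *Pink1* at 1.83 and *Park7* at 4.74 per 10000, so the low dopaminergic values hold for the nuclei classed as such.

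*Park7* varied between rats more than between classes. In rats 1 to 5 its level was 2.33, 0.98, 0.251, 0.297 and 0.576 per 10000 in dopaminergic-like neurons, 0.594, 0.972, 0.18, 0.339 and 0.478 in other neurons, 0.719, 1.5, 0.223, 0.47 and 0.88 in other glia and 0.633, 1.97, 0.0872, 0.491 and 1.17 in microglia-like nuclei. Rat 3 was the lowest in every class and rat 2 the highest in 3 of the 4. Other neurons were below other glia in 5 of 5 rats, by a log2 fold change of -0.75 (SE 0.19, adjusted p = 0.00157 in edgeR), and below microglia-like nuclei in 4 of 5 by -0.70 (SE 0.25, adjusted p = 0.0189 in edgeR). Of 19 other settings these calls of *Park7* held in 15 and 12. The first of these was lost, among others, without rat 5 (-0.52, adjusted p = 0.0771) and the second without rat 2 (-0.53, adjusted p = 0.197) or rat 5 (-0.61, adjusted p = 0.0993). For dopaminergic-like neurons against other glia the log2 fold change was -0.49 (95% interval -0.93 to -0.06, adjusted p = 0.0598 in edgeR), and it passed the threshold in 7 of 19 other settings, among them without rat 1 (-0.69, adjusted p = 0.00104) and without rat 3 (-0.58, adjusted p = 0.0292).

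Free RNA held more of *Pink1*, *Park7* and *Uchl1* than the nuclei did. In barcodes with fewer than 100 UMIs, taken as near-empty droplets, the level relative to the nuclei of the same rat had a median of 4.46 for *Park7*, 3.65 for *Uchl1*, 3.16 for *Pink1*, 1.75 for *Atp13a2* and 1.2 for *Vps35*, and of 0.904 for *Synj1*, 0.585 for *Dnajc6* and 0.457 for *Lrrk2*. Every rat had a ratio above 2 for *Park7*, *Uchl1* and *Pink1* (the lowest was 2.35, for *Pink1*) and every rat had one below 1 for *Lrrk2* (the highest was 0.88). For *Atp13a2* and *Vps35* it was above 1 in every rat as well, from 1.3 to 2.88 and from 1.01 to 1.39. The share of free RNA subtracted was 12.3%, 22%, 6.41%, 9.19% and 12.9% in rats 1 to 5. This is the mean of an estimate from oligodendrocyte-like nuclei (9.03% to 28.6%) and a lower one from neurons (3.78% to 15.3%). At the mean share, *Pink1* in dopaminergic-like neurons was at 0 in rats 2 to 5 and at 0.616 per 10000 in rat 1, so no fold is given for them. The lower share alone would take away less than the *Pink1* level of rats 2, 4 and 5, so their values of 0 hold for the mean share. In other neurons *Pink1* then averaged 0.0408 and in other glia 0.217. The log2 fold change of other neurons was -3.03 (adjusted p = 0.00174) against other glia and -3.00 (adjusted p = 0.00548) against microglia-like nuclei in edgeR. For *Park7* these values were -2.70 (adjusted p = 0.0617) and -3.06 (adjusted p = 0.059), which did not pass the threshold. The same share was taken from every class of a rat, although the estimate from neurons was the lower one in each rat (15.3% against 28.6% in rat 2). If neurons truly held the lower share, this would lower them too far relative to oligodendrocyte-like nuclei for genes richer in free RNA. The estimates came from different marker genes, and whether the share differs between classes was not tested. These 4 values therefore do not show how much of the differences remains, and shares set per class were not tested.

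**Figure D4:**
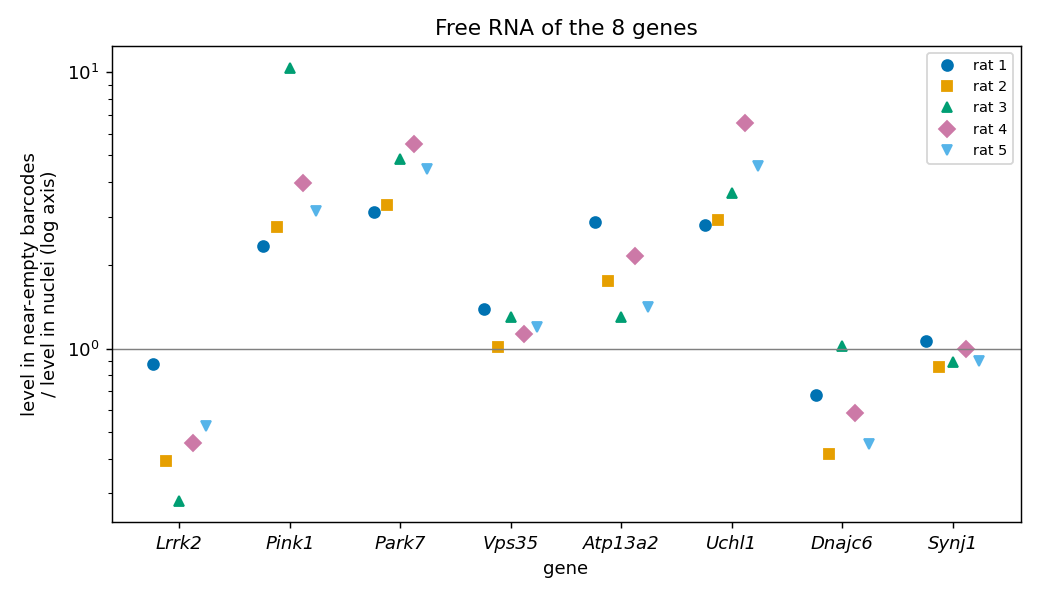
Ratio of the level of each gene in barcodes with fewer than 100 UMIs to its level in the nuclei of the same rat (y axis, log scale), with 1 symbol per rat and a line at equal levels. Pink1, Park7 and Uchl1 lie above the line in all 5 rats (medians 3.16, 4.46 and 3.65) and Lrrk2 lies below it in all 5 (median 0.457). Atp13a2 and Vps35 also lie above it in all 5, less far (medians 1.75 and 1.2).

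Among 24 genes of mitochondrial quality control, 23 were found and tested. In dopaminergic-like neurons 4 were higher and 7 lower than in other glia (29.2% and 31% of all genes, median log2 fold change -0.14, against -0.07 over all genes). *Mfn1*, a mitofusin of outer membrane fusion, was lower than in other glia by -1.18 (SE 0.21, adjusted p = 3.8e-05 in edgeR), and *Parl*, the protease that cleaves PINK1, by -0.91 (SE 0.19, adjusted p = 2.2e-04 in edgeR). *Oma1*, a stress-activated protease of the inner membrane, was lower in dopaminergic-like neurons than in other glia by -1.03 (SE 0.26, adjusted p = 0.00132 in edgeR) and lower than in microglia-like nuclei by -3.29 (SE 0.27, adjusted p = 3.0e-10 in edgeR). *Usp30*, a deubiquitinase that opposes removal of mitochondria, went the other way against microglia-like nuclei, by 1.42 (SE 0.23, adjusted p = 1.3e-05 in edgeR).

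Of 21 genes of redox defence, the theme of *Park7*, 0 were higher and 9 lower in dopaminergic-like neurons than in other glia (29.2% and 31% of all genes, median log2 fold change -0.41, against -0.07 over all genes), and 2 were higher and 8 lower than in microglia-like nuclei (26.6% and 24.3% of all genes, median -0.47, against 0.02). *Nfe2l2*, the transcription factor of the antioxidant response, was lower than in other glia by -2.07 (SE 0.23, adjusted p = 3.1e-08 in edgeR), and the peroxiredoxin genes *Prdx4* and *Prdx6* by -1.97 (SE 0.25, adjusted p = 1.6e-07 in edgeR) and -1.76 (SE 0.20, adjusted p = 2.3e-08 in edgeR). Against other neurons, 2 of the 21 were higher in dopaminergic-like neurons, where 6.42% of all genes were. *Prdx1*, another peroxiredoxin, was higher by 0.54 (SE 0.15, adjusted p = 0.013 in edgeR). *Hmox1*, which degrades heme, was higher by 1.99 (SE 0.56, adjusted p = 0.0163 in edgeR), from 19 UMIs in dopaminergic-like and 16 in other neurons.

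*Uchl1* was higher in dopaminergic-like neurons than in other glia, but it varied widely between rats. Its level was 12.9, 5.2, 2.59, 2.04 and 2.74 per 10000 in dopaminergic-like neurons of rats 1 to 5, 3.92, 3.56, 2.18, 1.49 and 2.01 in other neurons, 1.98, 3.91, 0.798, 1.02 and 1.76 in other glia and 4.54, 5.64, 2, 1.41 and 2.65 in microglia-like nuclei. Dopaminergic-like neurons were above other neurons and above other glia in 5 of 5 rats, with overlapping ranges in both cases. The excess over other glia on the log2 scale was 1.03 (SE 0.23, adjusted p = 3.9e-04 in edgeR), and 0.59 (adjusted p = 0.0137) without the sub-cluster rich in oligodendrocyte RNA. Against other neurons it was 0.66 (95% interval 0.22 to 1.10, adjusted p = 0.0523 in edgeR), and it passed the threshold in 7 of 19 other settings, with adjusted p from 0.006 with no filter to 0.661 without that sub-cluster, where it was 0.17. Other neurons were not called different in *Uchl1* from other glia (0.36, 95% interval -0.07 to 0.79, adjusted p = 0.15 in edgeR), a value that passed the threshold in 3 of 19 other settings. Nor were they from microglia-like nuclei (-0.08, 95% interval -0.54 to 0.39, adjusted p = 0.808 in edgeR).

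Dopaminergic-like neurons exceeded microglia-like nuclei in *Uchl1* by 0.59 (SE 0.24, adjusted p = 0.0458 in edgeR), and were higher in 4 of 5 rats. This call was lost in 13 of the settings tried, among them without rats 1, 3, 4 and 5 (adjusted p between 0.0619 and 0.185). Over clusters, in values pooled over rats, *Uchl1* was highest, at 19.5 per 10000, in the unnamed cluster led by *Slc6a3*. The dopaminergic sub-cluster rich in oligodendrocyte RNA (11.8) and another unnamed cluster (11.5) were next, at close levels. Rats contributed unequally, with 1337 of the 1643 nuclei of the first cluster from rat 2 before removal of doublets, and the order was not tested per rat. After subtraction of free RNA, the *Uchl1* level in dopaminergic-like neurons was 11, 1.83, 2.12, 1.21 and 1.35 in rats 1 to 5, against 2.04, 0.19, 1.72, 0.661 and 0.616 in other neurons. Dopaminergic-like neurons stayed higher in each rat, but rat 1, with its 14 nuclei, lay far above the other 4. The log2 fold change was then 1.35 (adjusted p = 0.207 in edgeR).

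Of 12 other genes of ubiquitin hydrolysis and supply, all were tested, and 2 were higher and 2 lower in dopaminergic-like neurons than in other glia (29.2% and 31% of all genes, median log2 fold change 0.07, against -0.07 over all genes). *Usp14*, a deubiquitinase of the proteasome, was higher by 0.63 (SE 0.14, adjusted p = 3.1e-04 in edgeR), and *Uba6*, an enzyme that activates ubiquitin, by 0.54 (SE 0.13, adjusted p = 9.3e-04 in edgeR). The paralog *Uchl3* was higher in other neurons than in other glia by 0.67 (SE 0.18, adjusted p = 0.00229 in edgeR).

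The *Uchl1* promoter alone among those listed held TATAAA, a core promoter element, and is shown for that reason (RefSeq, GRCr8, chr14:41849418-41849667, minus strand, 5′ to 3′ in the sense of the gene up to the base before the start). Capitals mark TATAAA, read here on the other strand as TTTATA, and GGGCGG.
Uchl1: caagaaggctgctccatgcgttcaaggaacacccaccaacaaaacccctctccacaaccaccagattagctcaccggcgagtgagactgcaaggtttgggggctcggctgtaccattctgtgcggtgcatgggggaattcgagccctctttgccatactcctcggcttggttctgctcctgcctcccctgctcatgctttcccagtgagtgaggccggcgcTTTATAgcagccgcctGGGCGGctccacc
Of all promoters of this length, 12.9% held TATAAA on either strand. The table listed 9 starts for 7 of the 8 genes, 3 of them for *Park7*.

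*Vps35* was the 1 gene of the 8 that no comparison of the 4 classes called. Its level in rats 1 to 5 was 3.06, 1.33, 1.68, 1.22 and 1.04 per 10000 in dopaminergic-like neurons, 0.98, 1.12, 1.7, 1.02 and 1.17 in other neurons, 1.01, 1.05, 1.08, 1.08 and 1.1 in other glia and 1.48, 1.41, 1.22, 1.45 and 1.62 in microglia-like nuclei. Other glia spanned the narrowest range (mean 1.06 ± 0.0359, SD, n = 5), and the high dopaminergic mean of 1.67 rested on the 14 nuclei of rat 1. Microglia-like nuclei were above other glia in 5 of 5 rats without overlap, yet the difference of 0.16 (95% interval -0.24 to 0.55) did not pass the test (adjusted p = 0.604 in edgeR). Over the 6 comparisons the log2 fold changes ran from -0.19 (other neurons against microglia-like nuclei, 95% interval -0.58 to 0.21) to 0.26 (dopaminergic-like against other neurons, interval -0.10 to 0.62), with adjusted p from 0.299 to 0.885 in edgeR. Within glia, *Vps35* was lower in astrocyte-like than in oligodendrocyte-like nuclei by -0.53 (SE 0.17, adjusted p = 0.00923 in edgeR), a call that held in 8 of 14 other settings and was lost, among others, without rat 4 (-0.44, adjusted p = 0.0858).

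The other 17 genes of retromer and its partners were all tested. In dopaminergic-like neurons 0 were higher and 5 lower than in other glia (29.2% and 31% of all genes, median log2 fold change -0.10, against -0.07 over all genes), 2 were higher and 5 lower than in microglia-like nuclei (26.6% and 24.3% of all genes, median -0.27, against 0.02). *Snx1*, a sorting nexin that works with retromer, was lower than in other glia by -1.80 (SE 0.17, adjusted p = 9.9e-10 in edgeR). *Tbc1d5*, a regulator of retromer, was lower by -1.57 (SE 0.23, adjusted p = 1.4e-06 in edgeR), and *Snx5* was lower than in microglia-like nuclei by -1.21 (SE 0.22, adjusted p = 4.9e-05 in edgeR).

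Among neurons, none of the 8 genes was called between transmitter classes. The 2600 GABA-like neurons and the 899 neurons whose vesicular glutamate transporter UMIs prevailed over GABA markers, called glutamate-like, which include a sub-cluster of 169 nuclei led by the serotonin neuron genes *Tph2* and *Slc6a4*, differed in 0 of 8 genes by edgeR, where 2.49% of 11173 genes tested were called. None had an unadjusted p under 0.05 and DESeq2 also called 0. The largest difference was that of *Lrrk2*, at 0.35 (95% interval -0.07 to 0.77, unadjusted p = 0.114). *Uchl1* and *Atp13a2* were lower in GABA-like neurons in 5 of 5 rats, by -0.20 (95% interval -0.65 to 0.24) and -0.14 (95% interval -0.45 to 0.16).

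Within glia, 4 of 8 genes differed between astrocyte-like and oligodendrocyte-like nuclei, against 48.4% of all genes. *Lrrk2* was higher (24.8% of all genes) and *Dnajc6*, *Synj1* and *Vps35* were lower (23.5%), *Synj1* by -0.49 (SE 0.14, adjusted p = 0.00384 in edgeR) in 5 of 5 rats, a call that held in 12 of 14 other settings and was lost without rat 4 (-0.42, adjusted p = 0.056) and after thinning (-0.27, adjusted p = 0.325). Between OPC-like and oligodendrocyte-like nuclei, 5 of 8 differed, against 45.3% of all genes, with *Lrrk2* higher (22.9%) and *Dnajc6*, *Pink1*, *Park7* and *Vps35* lower (22.4%). *Pink1*, *Park7* and *Vps35* were close to the threshold, at -0.55 (adjusted p = 0.0283), -0.48 (adjusted p = 0.0439) and -0.43 (adjusted p = 0.0435) in edgeR. Each was lost without rat 2, 4 or 5, with DESeq2 and with total UMIs as scale.

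The genes whose levels followed each member most closely were found over the 20 sums of 5 rats and 4 classes, after removal of the mean of each rat, among 12023 other genes. The sums share libraries and cell composition, so the correlations are a description across classes. *Dnajc6* was followed by *Syt14* (r = 0.989), *Slmap* (0.971) and *Scrn1* (0.967), *Atp13a2* by *Disp2* (0.97), *Prkar2b* (0.964) and *Clstn3* (0.963), and *Lrrk2*, besides 2 gene models without a symbol, by *Impdh1* (0.94). For *Pink1* they were *Arl6ip1* (0.962), *Slc39a7* (0.947) and *Ppdpf* (0.94), for *Park7* *Bola2* (0.944), *Mrfap1* (0.94) and *Ppp1ca* (0.933), and for *Uchl1* *Atp6v1b2* (0.942), *Gsta4* (0.927) and *Calb2* (0.901). *Vps35* was followed by *Dnaja1* (0.921), *Bpnt1* (0.919) and *Tmem183a* (0.902), and *Synj1*, besides a gene model without a symbol, by *Bmt2* (0.929) and *Fam117b* (0.926). None of the 8 genes was among the 3 closest of another.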

How the data were processed

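The values were UMI counts per gene and barcode. Per the deposited matrices and the notes of the submitters, the authors had made these counts with Cell Ranger 8.0.1 from 10x 3′ v3.1 libraries. The matrix header carries a version 4 entry for Cell Ranger instead, so the version is not settled. The genome build is not given in the sources used here. The matrices held all barcodes, before the removal of free RNA and of doublets that the methods describe. Here barcodes with at least 1000 UMIs, 201 to 4999 genes and under 5% mitochondrial UMIs were kept (1813 to 9336 per rat), and 1068 with the highest Scrublet scores were removed. Nuclei were clustered with scanpy 1.11.5 and leidenalg 0.10.2 (Python 3.11.15) on 2000 variable genes without the members and listed genes. Clusters were named from marker lists by rules set after the clusters had been seen, and without looking at the members. Counts were summed per rat and class and fitted with edgeR 4.0.16 in R 4.3.3 (glmQLFit and glmQLFTest, TMM, filterByExpr), with rat as block and Benjamini-Hochberg adjustment over all genes tested. Same-numbered sums came from the same animal, and their deviations from the class means correlated at 0.176 to 0.755 over class pairs (median 0.483). Standard errors were the absolute log2 fold change over the square root of the F statistic, and 95% intervals are normal approximations from them.

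In simulated counts for dopaminergic-like against other neurons, 164 of 192 tested genes changed by 2-fold (85.4%, 11398 genes run) and 191 of 191 changed by 4-fold (11409 genes run) were recovered, with 7 and 13 false calls among the unchanged genes. All classes and rats were simulated from a pooled profile, with the spread set by its trend over genes. The simulation held no rat effect and no class difference besides the changed genes, so these rates do not carry over to the real counts. Free RNA was profiled in barcodes with fewer than 100 UMIs. The members and gene lists were chosen with earlier results of these data known. Named were the 8 members in every comparison, up to 3 genes per list and comparison with the largest absolute log2 fold change past the threshold, and the 3 genes most alike to each member. Alternatives were DESeq2 1.42.0 as test or scale, no filter, no block, leaving out each rat, total UMIs, free RNA subtraction, thinning to 1000 UMIs, at least 2000 UMIs, no maximum of genes, doublets kept and other class definitions. Those of total UMIs, of sub-clusters left out or added and of oligodendrocyte-like nuclei alone were chosen after seeing the data. Counting limits the precision of low levels, and no per-sample column was left unmapped. The values of 1 gene of the ubiquitin list are not reported here.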

Additional observations from a re-analysis of the deposited data

Results flagged for a closer look

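Among 80 groups of 5 rats (8 genes in 10 classes), 3 held a rat far from the others, where chance gives about 1 in 20 groups. All 3 were the shallowest library, rat 3. The level of *Vps35* in other neurons was 1.7 per 10000 UMIs in rat 3, and the nearest rat was at 1.17. The level of *Vps35* in OPC-like nuclei was 1.65 in rat 3 against 0.973 in the nearest rat. The level of *Dnajc6* in astrocyte-like nuclei was 1.96 in rat 3 against 0.81. The part of depth in these values was not tested.

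All 8 genes had UMIs in barcodes with fewer than 100 UMIs, which entered no comparison and have no control. These barcodes of the 5 rats held 143 UMIs of *Lrrk2*, 1366 of *Pink1*, 2917 of *Park7*, 1407 of *Vps35*, 1507 of *Atp13a2*, 10679 of *Uchl1*, 2225 of *Dnajc6* and 1628 of *Synj1*.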

How the results depend on the processing

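Of 1248 values compared with the reported one, 1048 kept their direction and side of the threshold, 98 lost the threshold, 33 gained it and 69 changed sign, and every value that changed sign had not been called. Of 35 calls, 17 were kept in all settings and 35 kept their sign. Of 32 levels, 1 moved by more than the spread, *Dnajc6* in microglia-like nuclei, to 2.33 per 10000 with no maximum of genes. The causes were not tested. With free RNA subtracted at the mean share, *Pink1* in dopaminergic-like neurons was at 0 in rats 2 to 5, so its differences there say nothing about stability. Among dopaminergic-like neurons, rat 1 had the fewest nuclei (14) and rat 3 the lowest median UMIs per nucleus (1763).

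The count of members called for dopaminergic-like against other neurons (1) was 2 with the DESeq2 test, DESeq2 size factors, no filter or at least 2000 UMIs, 0 without the replicate block or with free RNA subtracted, and 0 to 2 with a rat left out. Without the replicate block the count was 3 for dopaminergic-like neurons against microglia-like nuclei, 3 for other neurons against other glia and 3 for other neurons against microglia-like nuclei, which was also 3 with nuclei typed by their own markers. For astrocyte-like against oligodendrocyte-like nuclei (4) it was 2 after thinning and 2 to 4 with a rat left out. For OPC-like against oligodendrocyte-like nuclei (5) it was 2 with the DESeq2 test, DESeq2 size factors, no replicate block, thinning or total UMIs, 3 with free RNA subtracted and 2 to 5 with a rat left out.

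The log2 values that changed sign were as follows. With nuclei typed by their own markers, dopaminergic-like against other neurons gave *Pink1* 0.36 and *Atp13a2* 0.01, against other glia *Park7* 0.26, and against microglia-like nuclei *Park7* 0.35 and *Synj1* 0.01, while other neurons against microglia-like nuclei gave *Uchl1* 0.25 and microglia-like nuclei against other glia *Lrrk2* -0.89. Without the sub-cluster rich in oligodendrocyte RNA, *Park7* was -0.21 for dopaminergic-like against other neurons, and *Vps35* -0.01 against microglia-like nuclei and 0.02 for other neurons against other glia. *Vps35* for dopaminergic-like neurons against microglia-like nuclei was -0.01 with the DESeq2 test, -0.07 with its size factors, -0.09 with no filter, -0.11 after thinning and -0.09 with total UMIs. *Vps35* for other neurons against other glia was 0.03 without the replicate block, 0.01 with doublets kept, 0.14 with total UMIs and 0.06 with sub-clusters of some dopaminergic markers left out, where *Uchl1* against microglia-like nuclei was 0.04. For microglia-like nuclei against other glia, *Pink1* and *Park7* were 0.00 and 0.01 with the DESeq2 test, 0.02 and 0.09 with its size factors, 0.06 and 0.14 after thinning and 0.19 and 0.26 with total UMIs, and *Park7* was 0.36 with free RNA subtracted. For GABA-like against glutamate-like neurons, *Pink1* was -0.01 with the DESeq2 test and with its size factors, -0.26 with free RNA subtracted, -0.08 with doublets kept, -0.28 after thinning and -0.04 with total UMIs, *Synj1* was -0.03 after thinning and -0.01 with total UMIs, and *Vps35* was 0.00 after thinning. For astrocyte-like against oligodendrocyte-like nuclei, *Park7* and *Uchl1* were 0.17 and 0.10 with the DESeq2 test, 0.13 and 0.10 with its size factors, 0.18 and 0.39 with free RNA subtracted, 0.23 and 0.08 after thinning and 0.18 and 0.14 with total UMIs, and *Park7* was 0.03 without the replicate block. For OPC-like against oligodendrocyte-like nuclei, *Atp13a2* was -0.01 and *Synj1* -0.13 with no filter, *Synj1* -0.06 with free RNA subtracted and *Uchl1* 0.00 with total UMIs.

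With each rat left out in turn, these values ranged across 0: *Synj1* from -0.01 to 0.13 for dopaminergic-like against other neurons, *Vps35* from -0.04 to 0.16 for dopaminergic-like neurons against microglia-like nuclei and from -0.19 to 0.11 for other neurons against other glia, *Uchl1* from -0.26 to 0.09 for other neurons against microglia-like nuclei, *Pink1* from -0.20 to 0.15 and *Park7* from -0.18 to 0.09 for microglia-like nuclei against other glia, *Pink1* from -0.07 to 0.07 for GABA-like against glutamate-like neurons, *Park7* from -0.08 to 0.05 and *Uchl1* from -0.15 to 0.06 for astrocyte-like and *Synj1* from -0.06 to 0.08 for OPC-like against oligodendrocyte-like nuclei.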
